A study of Homo sapiens with 4 samples.

Results

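The genes described here encode the 5 Rel/NF-kB subunits (NFKB1, NFKB2, REL, RELA and RELB) and 5 regulators of NF-kB. The regulators are the IkB proteins NFKBIA, NFKBIB, NFKBIE and NFKBIZ and the ubiquitin-editing enzyme TNFAIP3. Of these, NFKBIZ is a nuclear IkB that acts as a co-activator for a subset of genes, so it is not simply an inhibitor. All 10 genes were taken by symbol from the deposited count tables, which list 23228 genes. Each was found in every library and passed the filter on low counts. RNA sequencing was run on MDA-MB-231, an established human triple negative breast cancer line, in cells that the ALDEFLUOR assay for aldehyde dehydrogenase activity had sorted as cancer stem cells and that were then kept in MammoCult medium. The compared groups were cells stably expressing a KDM1A shRNA from a lentiviral vector, with 2 libraries, and cells stably expressing a control shRNA, with 2 libraries. KDM1A, also called LSD1, removes methyl groups from lysine 4 of histone H3. The labels describe a single KDM1A shRNA with no rescue, so loss of KDM1A, off-target action of that hairpin and differences between the stable cultures cannot be told apart. The labels do not say whether the libraries of a group come from different cultures, and p-values measure only library-to-library spread, possibly technical.

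NF-kB transcription factors are dimers of Rel proteins, which share a DNA-binding Rel homology region. RELA, RELB and REL carry activation domains, whereas NFKB1 and NFKB2 are made as precursors that hold their partners back until they are processed to short DNA-binding forms. Cytoplasmic IkB proteins keep dimers inactive until the IkB kinase complex marks these IkB proteins for degradation. Several genes of the system are themselves known NF-kB targets, among them NFKBIA, NFKB2, RELB and TNFAIP3, so their RNA is often read as part of a feedback loop, and NF-kB activity is commonly high in triple negative breast cancer lines.

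The kappaB consensus, the letter pattern that NF-kB dimers recognise, was common just before the start sites of these genes. RefSeq promoter windows (GRCh38.p14, the 250 bases before each annotated start) were found for 8 of the 10 genes, in 14 windows, while RELB and NFKBIE had none. The consensus, searched on both strands, was present in 9 of these windows, against 5.21% of 35116 RefSeq promoter windows of the same length. The 9 windows belonged to 7 of the 8 genes. Some of these genes had 2 or 3 windows, and the share of all genes with a match in any window was not computed. Shorter spelled-out forms that overlap the consensus, GGGAANNCC and GGGNNTTCC, were each present in 4 of the 14 windows (3 of the 8 genes). They were present in 5.89% and 5.78% of all the RefSeq windows. RELA had no match in either of its windows. A match is a description of letters and does not show that a factor binds there. The 120 bases before the start are given for the feedback genes NFKBIA (chr14:35404750-35404869, minus strand) and TNFAIP3 (chr6:137867139-137867258, plus strand), for the subunit gene NFKB2 (chr10:102394458-102394577, plus strand) and, as the gene without a match, for RELA (chr11:65662917-65663036, minus strand), read 5′ to 3′ on the gene's strand with the matches in capitals.
NFKBIA: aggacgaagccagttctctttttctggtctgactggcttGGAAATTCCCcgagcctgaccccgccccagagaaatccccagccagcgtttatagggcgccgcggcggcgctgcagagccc
TNFAIP3: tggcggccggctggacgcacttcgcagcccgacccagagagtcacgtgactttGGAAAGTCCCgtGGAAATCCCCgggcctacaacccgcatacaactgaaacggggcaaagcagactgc
NFKB2: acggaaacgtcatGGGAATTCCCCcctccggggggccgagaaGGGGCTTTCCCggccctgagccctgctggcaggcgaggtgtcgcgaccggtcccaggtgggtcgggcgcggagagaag
RELA: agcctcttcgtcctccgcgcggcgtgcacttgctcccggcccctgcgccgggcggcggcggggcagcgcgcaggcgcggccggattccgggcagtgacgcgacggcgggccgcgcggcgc
The NFKBIA stretch held GGAAATTCCC, 81 to 72 bases before the start. The TNFAIP3 stretch held 2 matches, GGAAAGTCCC from 67 and GGAAATCCCC from 55 bases before the start. In NFKB2 the matches formed 2 groups, 1 around GGGAATTCCC from 107 bases and 1 around GGGGCTTTCC from 78 bases before the start of its second listed window.

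Sequencing depth was similar across libraries, with 23902900 and 25761937 gene reads in the KDM1A shRNA libraries and 26923678 and 24250377 in the control libraries. KDM1A itself (chromosome 1, 23345936 to 23410182, GRCh37) had 561 and 649 reads in KDM1A shRNA libraries, against 4660 and 4059 in control libraries, in keeping with the labels. Of 6 genes typical of MDA-MB-231, such as VIM and AXL, 5 were higher and 1 (CD44) lower in KDM1A shRNA, and their summed level was 4813 and 4863 CPM (counts scaled to library size with TMM factors) in KDM1A shRNA libraries against 3862 and 3811 CPM in control libraries. The 8 luminal and epithelial markers summed to 673 and 705 CPM in KDM1A shRNA libraries and to 555 and 565 CPM in control libraries. KRT19 and KRT18 made up most of these sums, at 361 and 376 CPM and at 270 and 287 CPM in KDM1A shRNA libraries. In control libraries they had 279 and 289 CPM and 243 and 243 CPM. Of the 8 markers, 5 were higher and 1 (FOXA1) lower in KDM1A shRNA, and ESR1 and PGR, with 0 to 9 reads, were not tested. Of 12 markers of other cell types, 5 were lower and 3 higher in KDM1A shRNA, and their sum was 137 and 131 CPM in KDM1A shRNA libraries against 224 and 217 CPM in control libraries. The neurofilament gene NEFM had 18 and 15 reads in KDM1A shRNA libraries against 1158 and 1005 in control libraries, NEFL had 0 and 1 against 116 and 99, and the stromal proteoglycan gene DCN had 1382 and 1351 against 3361 and 2901. PDGFRB, a stromal receptor gene, was higher, with 631 and 638 reads in KDM1A shRNA libraries against 251 and 220 in control libraries. SOX10 had 0 reads in every library, and the leukocyte marker PTPRC had 2 to 4. CDKN2A, a gene MDA-MB-231 is known to lack, had 13 and 19 reads in KDM1A shRNA libraries but 323 and 329 in control libraries. Reads of this gene go against the label in both groups, and the control libraries held far more of them. CDKN2B, deleted with it, had 0 and 1 reads in KDM1A shRNA libraries against 27 and 31 in control libraries. The part of these differences in the results that follow was not tested. No comparison could be made without the control libraries because they are the only controls. In bulk RNA, fewer cells of a kind and less RNA per cell cannot be told apart.

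Most of the 10 genes were lower in KDM1A shRNA libraries than in control libraries. The part in this of the marker differences given above, such as the CDKN2A reads of the control libraries, was not tested. By edgeR's quasi-likelihood test, with p-values adjusted over the 14012 genes tested, 8 of the 10 fell and 0 rose (0 rose also at an unadjusted p under 0.05, in DESeq2 and in limma-voom). Over all genes tested, 28.8% were called lower and 27.3% higher. The median log2 fold change of the 10 genes, KDM1A shRNA over control shRNA, was −0.47, and that of all genes tested was −0.0047. The changes ran from −1.16 for TNFAIP3 to −0.07 for RELA. Both KDM1A shRNA libraries lay below both control libraries for 9 of the 10 genes, which was so for 39.6% of all genes tested, and the groups overlapped only for RELA. A fall of 2-fold or more was called for 2 of the 10 and for 8.54% of all genes. The 10 genes were chosen with earlier results of these data known, so these differences from all genes are not independent evidence.

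**Figure D1:**
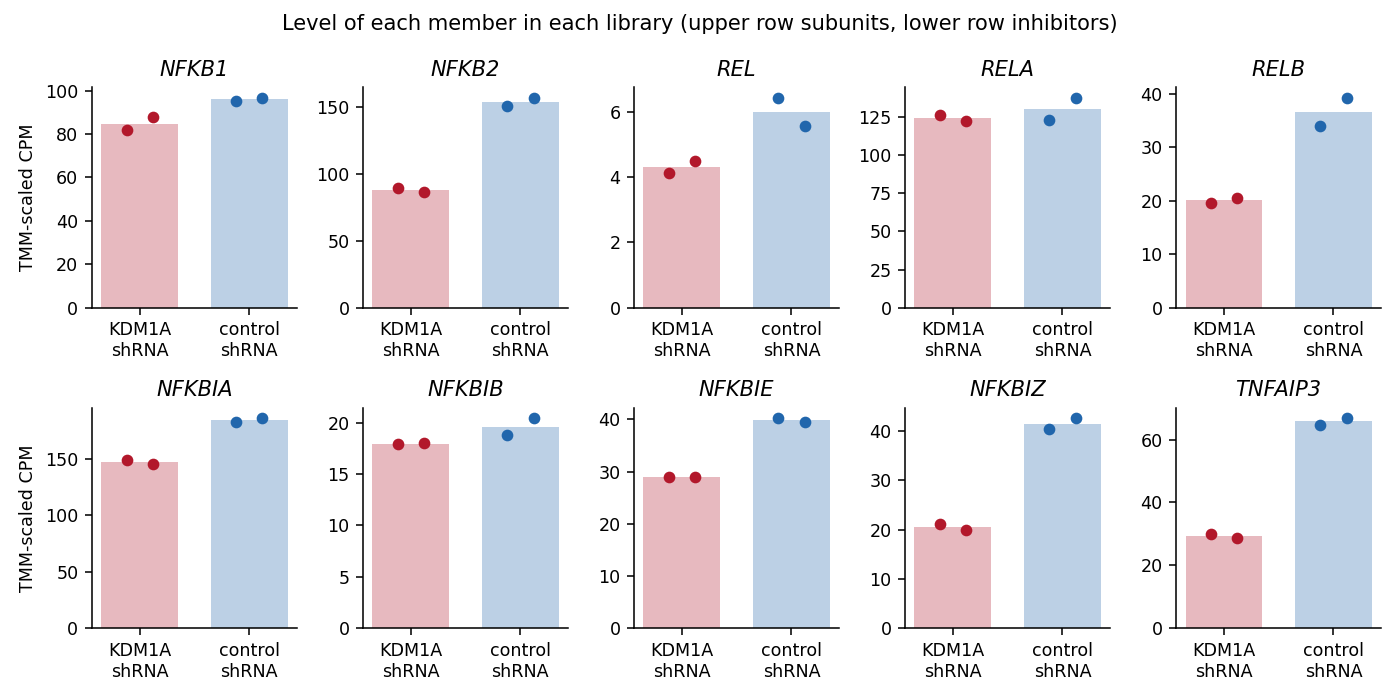
TMM-scaled CPM of each gene, with points for the 2 libraries of each group and bars for their mean; vertical axes start at 0 and differ between panels. In the lower row the KDM1A shRNA libraries stand at 29.4 CPM on average for TNFAIP3, against 65.8 CPM in control shRNA libraries, while in the RELA panel the points of the 2 groups overlap.

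Among the activating subunits, RELB and, less firmly, REL were called lower, and RELA did not pass the test. RELA (chromosome 11, 65421070 to 65430561, minus strand, GRCh37), which encodes the main activating partner of canonical NF-kB, had 126 and 123 CPM in KDM1A shRNA libraries, against 123 and 138 CPM in control libraries. The groups overlapped, with 1 knockdown library between the controls and the other just under the lower control. Its log2 fold change was −0.07 (95% interval −0.18 to 0.04, SE 0.05, edgeR adjusted p = 0.29), so a fall of more than about 0.18 on the log2 scale lay outside the interval. The sign rested on the controls: without control library 2 it was 0.01, and without control library 1 it was −0.15 with an adjusted p of 0.0011 in edgeR.

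RELB (chromosome 19, 45504719 to 45541450, plus strand), the activating partner of NFKB2 in the non-canonical branch, had 19.7 and 20.5 CPM in KDM1A shRNA libraries, against 34.1 and 39.3 CPM in control libraries. Both knockdown libraries were well below both controls, and the control libraries differed from each other more than the knockdown libraries did. RELB fell to 54.7% of its control level (log2 fold change −0.87, 95% interval −1.04 to −0.70, SE 0.08, edgeR adjusted p = 3.9e-07). REL (chromosome 2, 61108626 to 61158747, plus strand), best known from lymphoid cells, was the scarcest member, with 99 and 116 reads in KDM1A shRNA libraries and 172 and 135 in control libraries. Its groups did not overlap, and it fell by 0.48 on the log2 scale (SE 0.15, edgeR adjusted p = 0.012). That call was lost in DESeq2 (adjusted p = 0.13), without control library 1 (0.080 in edgeR) and without KDM1A shRNA library 1 (0.080).

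The precursor subunits also parted, NFKB2 falling far more than NFKB1. NFKB2 (chromosome 10, 104153867 to 104162281, plus strand), whose precursor acts as an IkB for RELB until it is processed, had 89.4 and 86.7 CPM in KDM1A shRNA libraries, against 151 and 157 CPM in control libraries. All its libraries kept close to their group mean, 88.1 ± 1.91 CPM in KDM1A shRNA and 154 ± 4.33 CPM in control shRNA (SD, n = 2 each). The log2 fold change was −0.81 (95% interval −0.90 to −0.71, SE 0.04, edgeR adjusted p = 1.6e-09). NFKB1 (chromosome 4, 103422487 to 103538459, plus strand), the canonical precursor and partner of RELA, had 81.7 and 87.9 CPM in KDM1A shRNA libraries, against 95.2 and 96.7 CPM in control libraries. It was lower by a small amount without overlap (−0.18, 95% interval −0.28 to −0.07, SE 0.05, edgeR adjusted p = 0.0070). Leaving out KDM1A shRNA library 1 ended that call (−0.13, adjusted p = 0.18). The intervals of NFKB2 and NFKB1 did not overlap, nor did those of RELB and RELA.

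**Figure D2:**
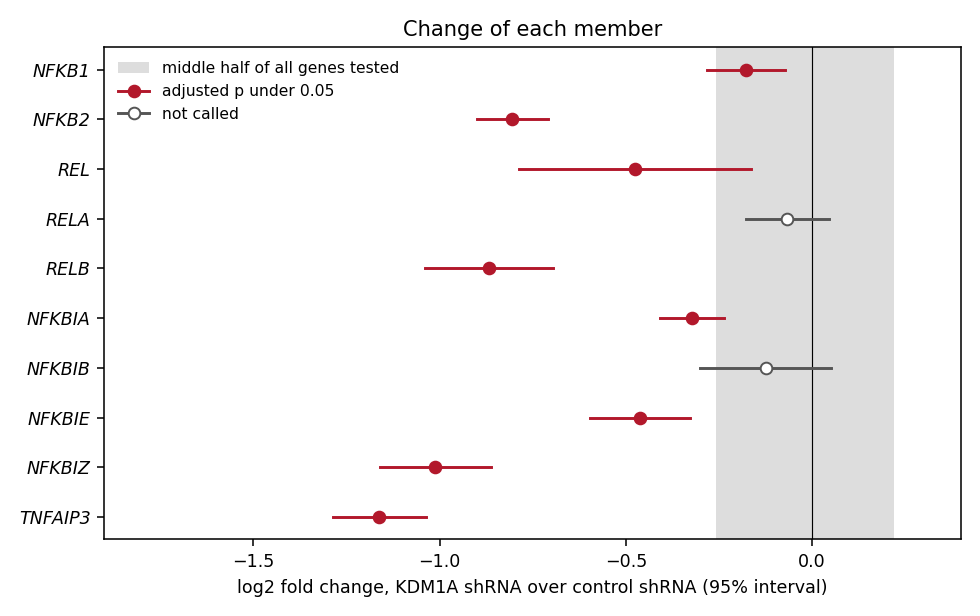
Log2 fold change of each gene, KDM1A shRNA over control shRNA, with its 95% interval from the edgeR fit; filled points passed an adjusted p of 0.05, and the grey band spans the middle 50% of all genes tested (−0.26 to 0.22). TNFAIP3 and NFKBIZ lie farthest to the left, at −1.16 and −1.01, and the open points of RELA and NFKBIB lie inside the band.

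Among the IkB proteins and TNFAIP3, the largest falls were those of TNFAIP3 and NFKBIZ. TNFAIP3 (chromosome 6, 138188351 to 138204451, plus strand), which removes activating ubiquitin chains from signalling proteins upstream of the IkB kinases, had 718 and 744 reads in KDM1A shRNA libraries, against 1735 and 1619 in control libraries. On the scaled level it stood at 29.4 ± 0.81 CPM in KDM1A shRNA and at 65.8 ± 1.38 CPM in control shRNA (SD, n = 2 each), so the libraries of a group nearly coincided. The level was 2.24-fold lower (log2 fold change −1.16, 95% interval −1.29 to −1.04, SE 0.06, edgeR adjusted p = 6.4e-10), and 7.64% of all genes tested changed as far downward or farther. NFKBIZ (chromosome 3, 101546835 to 101579866, plus strand), a nuclear IkB that acts as a co-activator for a subset of inflammatory genes, had 21.2 and 19.8 CPM in KDM1A shRNA libraries, against 40.3 and 42.5 CPM in control libraries. The knockdown libraries held 49.6% of the control level, with no overlap (−1.01, 95% interval −1.16 to −0.86, SE 0.07, edgeR adjusted p = 1.9e-08). NFKBIZ sat at the 2-fold mark: it was at −0.96 without KDM1A shRNA library 2 and at −0.97 without control library 2.

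The cytoplasmic IkB proteins changed less. NFKBIA (chromosome 14, 35870285 to 35873955, minus strand), the inhibitor resynthesised most quickly after NF-kB activation, had 149 and 145 CPM in KDM1A shRNA libraries, against 183 and 185 CPM in control libraries. The groups were apart by far more than their spread, and NFKBIA fell to 79.9% of control (−0.32, 95% interval −0.41 to −0.24, SE 0.04, edgeR adjusted p = 7.6e-06). NFKBIE (chromosome 6, 44225903 to 44233525, minus strand), another inducible cytoplasmic inhibitor, had 28.9 and 29.0 CPM in KDM1A shRNA libraries, against 40.2 and 39.6 CPM in control libraries. It fell by 0.46 on the log2 scale (95% interval −0.60 to −0.33, SE 0.06, edgeR adjusted p = 1.9e-05). NFKBIB (chromosome 19, 39390340 to 39399533, plus strand), an inhibitor known for slower turnover, had 17.9 and 18.0 CPM in KDM1A shRNA libraries, against 18.8 and 20.4 CPM in control libraries. The groups did not overlap, but the difference of −0.12 did not pass (95% interval −0.30 to 0.05, SE 0.08, edgeR adjusted p = 0.21). NFKBIB shares 40 exon bases with SIRT2 on the opposite strand in the annotation, and no source used here states whether counting used strand.

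Among the 8 genes with a promoter window, the changes of those with a kappaB match ran from −0.12 (NFKBIB, not called) to −1.16 (TNFAIP3), and RELA, the only 1 without a match, was at −0.07. With a single gene on that side the match and the change cannot be compared. NFKBIB held GGGAATTTCC from 28 bases before the start of its second window, and NFKB1 held the same letters from 49 bases. NFKBIZ had them from 223 bases, and REL had GGGAAATTCC from 47 bases.

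Setting each gene against RELA within a library removes the scaling between libraries. Per 100 reads of RELA, TNFAIP3 had 23.8 and 23.5 reads in KDM1A shRNA libraries, against 52.6 and 48.5 in control libraries. NFKBIZ had 16.8 and 16.2 in KDM1A shRNA libraries and 32.7 and 30.9 in control libraries. NFKB2 had 70.9 and 70.7 in KDM1A shRNA libraries, against 123 and 114 in control libraries, so a gene with more reads than RELA in the controls had fewer after knockdown. RELB had 15.6 and 16.7 reads in KDM1A shRNA libraries, against 27.7 and 28.5 in control libraries. NFKBIA kept more reads than RELA in every library, with 118 and 118 in KDM1A shRNA libraries and 148 and 135 in control libraries. For NFKB1 the ratios of the groups overlapped, at 64.8 and 71.6 in KDM1A shRNA libraries and 77.4 and 70.2 in control libraries. Those of NFKBIB were barely apart, at 14.2 and 14.7 in KDM1A shRNA libraries and 15.3 and 14.8 in control libraries. How often ratios to RELA separate the groups over all genes was not computed. Against NFKB1, NFKB2 stood at 109 and 98.7 reads per 100 in KDM1A shRNA libraries and at 158 and 162 in control libraries. Such ratios show unequal change and not which of the genes stayed level.

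**Figure D3:**
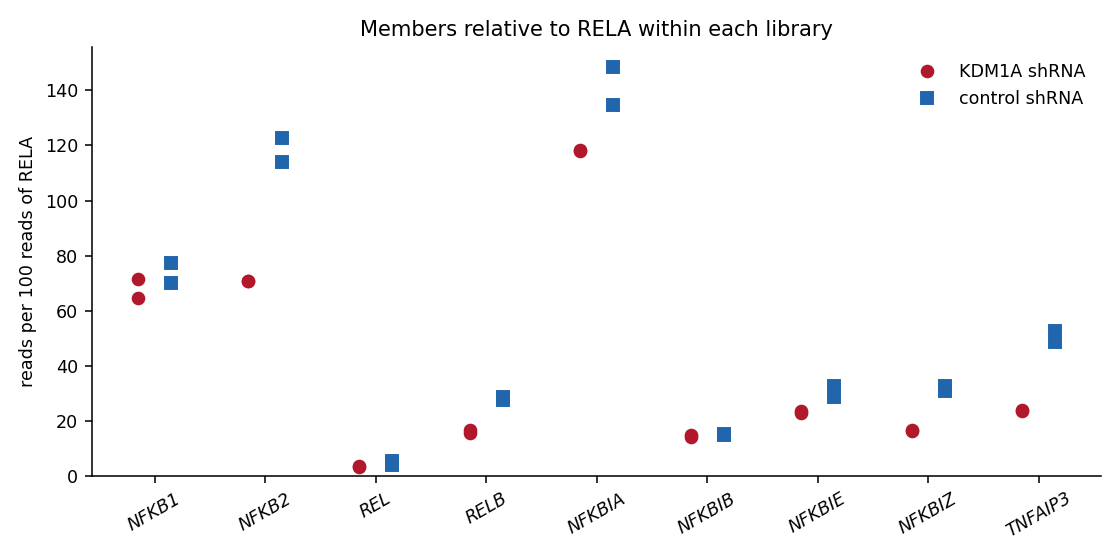
Reads of each gene per 100 reads of RELA in the same library, KDM1A shRNA as circles to the left and control shRNA as squares to the right, on an axis from 0. The 2 NFKB2 values of KDM1A shRNA, 70.9 and 70.7, lie well under the 123 and 114 of control shRNA, and NFKB1 overlaps.

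Levels of different genes were compared per kilobase of merged exons (GENCODE v44 mapped to GRCh37). NFKBIA was the most abundant member in both groups, with 43.4 CPM per kilobase in KDM1A shRNA and 54.2 in control shRNA, and REL the least, with 0.25 in KDM1A shRNA and 0.35 in control shRNA. In KDM1A shRNA the order below NFKBIA was RELA (22.8 CPM per kilobase), NFKB2 (15.8), NFKBIE (11.2), NFKBIB (7.72), RELB (6.69), NFKB1 (5.41), TNFAIP3 (4.56) and NFKBIZ (3.48). In control shRNA it was NFKB2 (27.6 CPM per kilobase), RELA (23.9), NFKBIE (15.5), RELB (12.2), TNFAIP3 (10.2), NFKBIB (8.43), NFKBIZ (7.01) and NFKB1 (6.12). NFKB2 and RELA changed places, and TNFAIP3 and RELB stood above NFKBIB in the controls but below it after knockdown. No neighbours in these orders overlapped between libraries. The order depends on the length used, since NFKB1 has 15679 merged exon bases but a canonical transcript of 4055 bases. Per kilobase of canonical transcript, NFKB1 followed NFKB2 in both groups, at 20.9 CPM per kilobase in KDM1A shRNA and 23.7 in control shRNA, and in the controls RELA (51.8) overlapped with NFKB2 (51.1) and NFKBIB (16.4) with both NFKBIE (17.0) and RELB (16.2).

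Summed over genes, the 5 subunits held 321 and 322 CPM in KDM1A shRNA libraries, against 410 and 436 CPM in control libraries. The IkB proteins and TNFAIP3 together held 247 and 241 CPM in KDM1A shRNA libraries, against 347 and 355 CPM in control libraries. Knockdown libraries thus held 76.1% of the control level for the subunits and 69.6% for the IkB proteins and TNFAIP3. Abundant genes weigh most in such sums. The median log2 fold changes were close, −0.48 for the subunits and −0.46 for the IkB proteins and TNFAIP3. The genes whose course over the 4 libraries was closest to the average of the 10, by root mean square difference of centred log2 CPM among 10072 genes of at least 3 log2 CPM, were SERPINA1 (0.0021), CD82 (0.011) and BNIP3 (0.013). They fell by 0.55, 0.57 and 0.57 on the log2 scale. Falls of this size follow from how they were picked, and with 4 libraries close matches among 10072 genes are likely.

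The kinases upstream were called in both directions. Of 16 genes for the IkB kinase complex and the kinases that feed it, 5 fell and 6 rose, where 28.8% of all genes were called lower and 27.3% higher, and the median log2 fold change was −0.02. The difference between this list and the 10 genes was not tested. Without KDM1A shRNA library 1 only 1 was called lower, without library 2 of that group 2, and in DESeq2 1. CHUK and IKBKB, the catalytic IkB kinases, were at 81.8 and 88.8 CPM and at 64.1 and 63.2 CPM in KDM1A shRNA libraries, against 68.8 and 67.5 CPM and 49.9 and 52.9 CPM in control libraries. Both rose, CHUK by 0.32 (SE 0.05, edgeR adjusted p = 0.00011) and IKBKB by 0.31 (SE 0.05, 0.00022). MAP3K14, the NF-kB-inducing kinase that triggers processing of the NFKB2 precursor, rose (28.3 and 29.6 CPM in KDM1A shRNA libraries, against 20.7 and 18.1 CPM in control libraries; log2 fold change 0.57, SE 0.08, edgeR adjusted p = 2.6e-05). IRAK1, a kinase of interleukin-1 and Toll-like receptor signalling, rose by 0.35 (SE 0.04). The genes that fell, named after their values were seen, were MAP3K8 (−0.48), IKBKE (−0.25), TBK1 (−0.20), MAP3K1 (−0.19) and TAB3 (−0.17), all by the edgeR fit.

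Over all genes tested, 28.8% were called lower and 27.3% higher, for comparison with the lists that follow, and 6151 of 14012 were not called. Of the 17 ubiquitin ligases and adaptors of the pathway, 5 were lower, 2 higher and 10 not called. Without KDM1A shRNA library 2 the count was 2 lower and 1 higher, without KDM1A shRNA library 1 it was 1 higher, and without control library 1 it was 4 higher. The largest change of the list was that of BIRC3, a ligase and inhibitor of apoptosis that NF-kB induces. It had 805 and 776 CPM in KDM1A shRNA libraries, against 1886 and 1857 CPM in control libraries (log2 fold change −1.24, SE 0.03, edgeR adjusted p = 8.3e-13). The adaptors TRAF1 (−0.38) and TRAF3 (−0.19) fell and SHARPIN, a subunit of the linear ubiquitin ligase, rose (0.39). Negative regulators outside the 10 genes were split, with 4 lower and 4 higher of 12, or 2 and 2 without KDM1A shRNA library 1. TNIP1, which binds TNFAIP3, fell (485 and 480 CPM in KDM1A shRNA libraries, against 806 and 826 CPM in control libraries; −0.76, SE 0.03, edgeR adjusted p = 1.7e-10), as did the ribonuclease ZC3H12A (53.2 and 53.9 CPM in KDM1A shRNA libraries, against 113 and 125 CPM in control libraries; −1.15, SE 0.06). PDLIM2, which promotes RELA degradation in the nucleus, rose (0.95, SE 0.12), and so did the linear deubiquitinase FAM105B, now called OTULIN (0.30, SE 0.05).

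The atypical IkB proteins outside the 10 genes did not pass the test. BCL3, a nuclear partner of the short NFKB1 and NFKB2 products, had 23.7 and 22.4 CPM in KDM1A shRNA libraries, against 23.0 and 25.6 CPM in control libraries (log2 fold change −0.07, 95% interval −0.24 to 0.09). NFKBID had 2.96 and 2.75 CPM in KDM1A shRNA libraries, against 1.94 and 2.51 CPM in control libraries (0.36, 95% interval −0.07 to 0.80). Neither was called in either direction by edgeR (0 of 2, and 0 of 2 at an unadjusted p under 0.05, in DESeq2 and in limma-voom). Of the 5 NFAT factors, which share the Rel homology region, NFATC1 (−1.79) and NFATC4 (−1.04) fell. NFATC2 rose (1.76, from the edgeR fit), and 2 were not called. Among all genes tested 28.8% were called lower and 27.3% higher, and lists of 2 and 5 genes are too short to compare with those shares.

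Most of the listed NF-kB targets outside the 10 genes were lower. The list holds 35 genes and was written with earlier results of these data known, so its direction is not independent evidence. Of the 30 tested, 24 fell and 2 rose, where 28.8% of all genes were called lower and 27.3% higher, and 18 fell by 2-fold or more, where 8.54% of all genes did. The median log2 fold change of the list was −1.60. CCL20, IL8, SOD2 and CXCL1, which had the smallest edgeR p of the list, stood at 10.4%, 12.9%, 19.3% and 18.7% of their control level. Genes picked in this way tend to have large changes, and over the list the log2 fold changes ran from −4.48 to 1.09. The 2 targets that rose were the transcription factor gene IRF1 (0.51, SE 0.07) and the protease gene PLAU (1.09, SE 0.05), named after their values were seen. The ligand TNF had 0 and 0 reads after knockdown, against 2 and 4 in control libraries, too few to test.

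**Figure D4:**
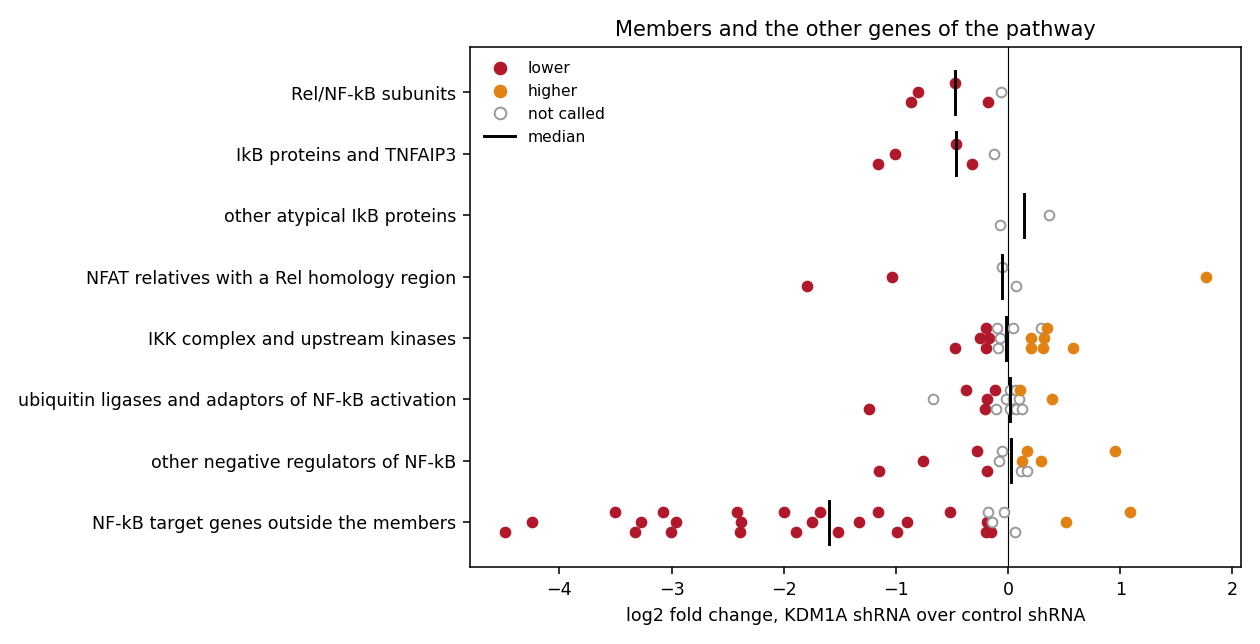
Log2 fold change, KDM1A shRNA over control shRNA, of every tested gene of each list, coloured by the edgeR call, with a bar for the median of the list. The medians of the subunits and of the IkB proteins with TNFAIP3 are −0.48 and −0.46, and that of the target genes is −1.60. Those of the kinases and of the ubiquitin genes lie at −0.02 and 0.01.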

How the data were processed

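Gene expression was measured by RNA sequencing of 4 libraries, 2 per group. The deposited files hold unnormalized read counts, as whole numbers, for each gene symbol. Per the submitters' processing notes the authors used CASAVA 1.8.2, TopHat2 2.0.8b and HTSeq with the hg19 genome; annotation version and strand setting are not given in the sources used here. The 5 HTSeq summary lines (38.9% to 41.0% of the sum over each file) were left out. Counts were fitted with edgeR 4.0.16 (TMM, filterByExpr with minimum count 10 and minimum total 15, quasi-likelihood F-test, group only, Benjamini-Hochberg over all genes tested, threshold 0.05). SE is the absolute log2 fold change over the square root of F. Alternatives used other normalizations and filters, DESeq2 1.42.0, limma-voom (limma 3.58.1), a replicate block, thinned counts and each library left out; canonical transcript length was added after the data were seen. With 2 libraries a group an exact permutation test, two-sided, reaches no p under 0.333 and was not used. Replicates differed by more than sampling noise (chi-square per degree of freedom 1.63 in KDM1A shRNA, 4.13 in control shRNA). The fit was tested on simulated data. The members and the gene lists were chosen with earlier results of these data known. Besides the members and KDM1A, up to 4 called genes per list with the smallest p were named. Protein sequences were not used here. Positions are from GENCODE v44 on GRCh37, promoters from RefSeq on GRCh38.p14.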

Additional observations from a re-analysis of the deposited data

How the results depend on the processing

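The count of 8 lower genes among the 10 held under the other normalizations, filters, limma-voom, thinned counts and the replicate block, and was 7 in DESeq2; with 1 library left out it ranged from 6 to 8, and 0 were higher under each of these settings. Beyond the lost calls of NFKB1 and REL given above, RELA reversed to 0.015 without control library 2 and was called lower without control library 1 (−0.146). With a library left out, the lone library of a group is taken to vary like the other group. Numbers were shared by replicates without a stated pairing: the within-group differences of replicates 1 and 2 correlated at 0.029 over 10019 genes, and with the replicate block 8 of the 10 genes were lower, with 4164 lower and 3978 higher over all genes, against 4033 and 3828 without it.

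Several counts of the short pathway lists moved by over 1.5 times; the causes were not tested. For the ubiquitin ligases and adaptors, 2 were higher, but 1 with upper quartile normalization, a mean of at least 5 CPM, thinned counts or DESeq2, 4 with library size alone, 3 with at least 1 count in total and with the replicate block, and 1 to 4 with 1 library left out; 5 were lower, but 3 in DESeq2 and 2 to 6 with 1 library left out. For the kinases 5 were lower, but 1 in DESeq2 and 1 to 5 with 1 library left out. For the NFAT factors, 2 were lower but 1 with a mean of at least 5 CPM, where fewer genes are tested. For the other negative regulators 4 were lower and 4 higher, but 2 to 5 and 2 to 4 with 1 library left out. Depth limits REL, at 99 to 172 reads, more than the other members, which had at least 428.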
